A study of Mus musculus with 12 samples.

Results

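The genes described here are 47 mouse genes of the endoplasmic reticulum (ER): folding chaperones, the enzymes that form disulfide bonds, the machinery that brings new proteins into the ER and adds sugars to them, the machinery that removes misfolded proteins, and the sensors of the unfolded-protein response. The list of names, out of 32699 gene symbols in the deposited table, was drawn up with earlier results of these data known. All 47 genes were present and passed the filter on low counts. They were followed by RNA-seq in splenic B cells from CHD4 knockout (KO) and wild-type (WT) mice, before and after activation in culture. CHD4 is the ATP-dependent chromatin remodeller of the NuRD complex. The KO 48 hr and WT 48 hr groups were cultured for 48 hr with 10 µg/ml lipopolysaccharide (LPS), a Toll-like receptor 4 ligand, and 25 ng/ml interleukin-4 (IL-4), and the KO 0 hr and WT 0 hr groups received no stimulation. Each of the 4 groups had 3 libraries, all prepared from 2 ng of total RNA. The labels give the genotype only as KO or WT and do not say whether the libraries of a group came from separate animals, so the p-values measure the spread between these libraries, which may be technical.

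Secreted and membrane proteins enter the ER through the Sec61 channel, lose their signal peptide, receive N-linked sugars and fold with the help of chaperones and disulfide isomerases. When unfolded proteins accumulate, the membrane sensors IRE1, ATF6 and PERK start the unfolded-protein response: IRE1 splices the mRNA of the transcription factor XBP1, ATF6 is itself cleaved to a transcription factor, and PERK slows translation and leads to ATF4 and CHOP. In B cells that mature towards antibody secretion, this machinery is known to expand, and XBP1 is needed for that expansion.

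The promoters of several ER chaperone genes carry the ER stress response element (ERSE), written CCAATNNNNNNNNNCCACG, which is known to be bound by the factor NF-Y at its CCAAT end and by ATF6 or XBP1 at its CCACG end. RefSeq promoter windows (GRCm38.p6, 250 bases before to 50 bases after the start of the gene) were matched for 39 of the 47 genes and searched on both strands. An ERSE was found in 10 of the 39, or 25.6%, against 0.137% of the 27025 genes with a window. The sites of these 10 genes are printed so that the element can be compared between members that did and did not differ between genotypes at 48 hr. Capitals mark the ERSE, and each line gives the strand on which CCAAT is read first.
Hsp90b1, chr10:86705626-86705668, minus strand: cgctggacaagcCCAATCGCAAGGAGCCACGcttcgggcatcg
Hsp90b1, chr10:86705521-86705563, plus strand: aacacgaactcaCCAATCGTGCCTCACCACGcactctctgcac
Ero1lb, chr13:12565670-12565712, minus strand: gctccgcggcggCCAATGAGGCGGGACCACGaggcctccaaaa
Derl3, chr10:75893230-75893272, minus strand: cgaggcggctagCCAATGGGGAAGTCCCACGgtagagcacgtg
Creld2, chr15:88819508-88819550, minus strand: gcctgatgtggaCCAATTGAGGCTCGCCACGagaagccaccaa
Hspa5, chr2:34772013-34772055, plus strand: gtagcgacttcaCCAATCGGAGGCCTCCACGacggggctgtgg
Calr, chr8:84847063-84847105, plus strand: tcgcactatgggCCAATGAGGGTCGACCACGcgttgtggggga
Canx, chr11:50325788-50325830, minus strand: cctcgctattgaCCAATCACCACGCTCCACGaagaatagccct
Dnajc3, chr14:118937815-118937857, plus strand: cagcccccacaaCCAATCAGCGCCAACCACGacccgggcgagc
Pdia6, chr12:17266479-17266521, plus strand: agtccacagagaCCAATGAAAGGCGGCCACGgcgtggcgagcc
Syvn1, chr19:6046520-6046562, plus strand: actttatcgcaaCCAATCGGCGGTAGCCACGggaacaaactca

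The 11 sites began between positions -212 and -44 relative to the RefSeq start, counted in the direction of the gene. Gene spans given below come from another annotation (GENCODE), whose starts can differ. For Hspa5 that span begins at 34771970, so the printed site lies inside it. Hsp90b1 had a pair of sites in opposite orientations, and the other 9 genes had 1 each. The related element ERSE-II, ATTGGNCCACG, was present in Dnajb11 and Herpud1, which is 2 of 39 or 5.13%, against 0.0444% of all genes. Capitals mark the ERSE-II.
Dnajb11, chr16:22857843-22857871, plus strand: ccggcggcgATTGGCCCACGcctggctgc
Herpud1, chr8:94386368-94386396, plus strand: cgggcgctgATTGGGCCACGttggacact

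The UPRE core TGACGTGG was in none of the 39 windows, against 0.714% of all genes. The CRE core TGACGT, which is part of the UPRE core, was in 5 windows or 12.8%, against 8.37% of all genes. The ends of the ERSE taken alone were common: CCAAT was in 82.1% of the members' windows and 41.1% of all genes, and CCACG in 82.1% and 35.5%. Both overlap the ERSE, and CCAAT read on the other strand overlaps the ERSE-II. A match is a description of these letters and not a measurement of binding.

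The libraries held 38956484 to 53189198 estimated counts each, and 19125 genes were tested. Chd4 was at 51.3, 38.8 and 74.7 CPM (estimated counts scaled to library depth, with each library total multiplied by its TMM factor, the default of edgeR) in KO 48 hr libraries, against 102, 96.1 and 123 CPM in WT 48 hr libraries. The log2 difference was -0.96 (SE 0.22, edgeR adjusted p = 0.038). At 0 hr the libraries labelled KO had 100.02, 70.6 and 92.8 CPM, against 99.4, 68.1 and 92.8 CPM in those labelled WT (log2 difference 0.02, SE 0.22, edgeR adjusted p = 0.99). The level of Chd4 RNA therefore did not separate the genotypes at 0 hr, so KO and WT at that time are given as labelled. Principal components were taken from the most variable tested genes. The second, with 6.7% of the variance of those genes, placed replicate 12 of KO 48 hr at 5.3 and replicate 6 of KO 0 hr at 9.8, between the other KO libraries (-54.7 to -20.4) and the WT libraries (13.4 to 30.8). The Y-linked gene Ddx3y was at 91.8 to 139 CPM in the 6 KO libraries and 20.8 to 28.3 CPM in the 6 WT libraries, and Xist, expressed from the inactive X, was at 0.856 to 1.59 CPM in KO and 75.4 to 293 CPM in WT. Sex composition thus moved with genotype, and the effects of the pair cannot be told apart in any difference between KO and WT below. All 8 B-cell markers were detected in every group, with a summed level of 5695 to 9648 CPM.

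Summed over the 47 genes, levels were higher after activation, by an amount that depended on the scaling, and higher in every KO 48 hr library than in any WT 48 hr library. Their summed level was 24316, 25780 and 25096 CPM in KO 48 hr libraries (25064 ± 732, SD, n = 3) and 20868, 20787 and 20830 CPM in WT 48 hr libraries (20829 ± 40.4). At 0 hr it was 5365, 6147 and 6192 CPM in KO (5901 ± 465) and 5755, 6836 and 5530 CPM in WT (6041 ± 698). The KO and WT libraries did not overlap at 48 hr and did overlap at 0 hr. The ratio of KO to WT means was 1.2 at 48 hr and 0.977 at 0 hr, and the ratio of 48 hr to 0 hr was 4.25 in KO and 3.45 in WT. Without Hspa5 and Hsp90b1, the most counted of the members, the KO to WT ratio at 48 hr was 1.15. As a share of all estimated counts with no scaling, the genes took 1.89% in KO 48 hr, 1.53% in WT 48 hr, 0.782% in KO 0 hr and 0.820% in WT 0 hr libraries. The rise with time was thus smaller without the TMM factors, which were 1.28 to 1.42 at 0 hr and 0.72 to 0.77 at 48 hr. In bulk samples, a change in the share of cells of a type and a change in RNA per cell cannot be told apart.

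**Figure D1:**
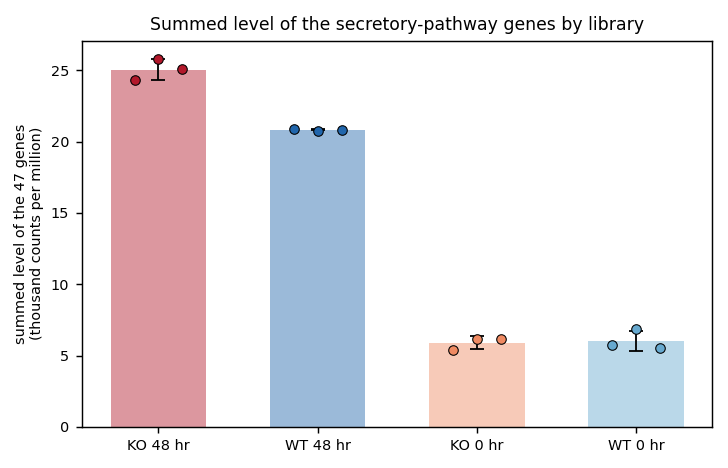
Summed level of the 47 genes in CPM by group, with 1 point per library and the mean and SD of 3 libraries; the KO 48 hr points (24316 to 25780 CPM) all lie above the WT 48 hr points (20787 to 20868 CPM), while the 0 hr groups overlap.

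With 48 hr of LPS and IL-4, most of the machinery rose in both genotypes. In KO cells 39 of 47 genes rose and 2 fell (edgeR quasi-likelihood test, adjusted p below 0.05), which is 83.0% and 4.26%, against 33.0% and 37.7% of all tested genes. In WT cells 35 rose and 3 fell, 74.5% and 6.38%, against 33.0% and 40.9% of all tested genes. The median log2 change of the members was 1.69 in KO and 1.59 in WT, beside -0.30 in KO and -0.39 in WT over all tested genes. These medians shift with the scaling: under upper-quartile scaling the median of all genes was -0.93 in KO and -1.06 in WT, and that of the members 1.06 in KO and 0.92 in WT. Under it 34 members rose and 8 fell in KO, against 22.1% and 54.8% of all tested genes, and 31 rose and 11 fell in WT, against 21.9% and 57.2%. With no scaling factor 32 rose and 10 fell in KO, against 19.1% and 59.3% of all tested genes, and 31 rose and 13 fell in WT, against 18.8% and 62.4%. The calls in KO and WT shared 35 genes that rose and 2 that fell (Eif2ak3 and Ero1lb), and 5 genes (Dnajb9, Edem2, Edem3, Ern1 and Syvn1) passed in neither.

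The chaperones changed most. Of 9 genes, 8 rose in both KO and WT, with median log2 changes of 2.81 in KO and 2.14 in WT. Hspa5 (chr2:34771970-34777547, mm10, plus strand) encodes BiP, the main Hsp70 chaperone of the ER and the protein that holds the sensors inactive. It was at 4016, 4251 and 4070 CPM in KO 48 hr libraries and 441, 628 and 612 CPM in KO 0 hr libraries, and at 3467, 3490 and 3399 CPM in WT 48 hr and 555, 784 and 544 CPM in WT 0 hr libraries. The times were far apart in both genotypes, with log2 changes of 2.88 in KO (SE 0.17, edgeR adjusted p = 2.9e-09) and 2.46 in WT (SE 0.16, edgeR adjusted p = 1.1e-08). Sdf2l1 encodes a partner of BiP and its co-chaperones. Its level was 270, 272 and 236 CPM in KO 48 hr libraries, against 20.7, 24.3 and 27.1 CPM in KO 0 hr libraries, and 219, 217 and 215 CPM in WT 48 hr, against 32.0, 32.5 and 25.7 CPM in WT 0 hr libraries. That is a log2 change of 3.43 in KO and 2.85 in WT (SE 0.13 and edgeR adjusted p of 9.6e-11 in KO and 2.8e-10 in WT). Manf encodes a small secreted ER protein with protective activity under ER stress. It was at 533, 583 and 607 CPM in KO 48 hr and 61.2, 42.8 and 57.3 CPM in KO 0 hr libraries, and at 482, 539 and 447 CPM in WT 48 hr and 59.9, 63.1 and 50.7 CPM in WT 0 hr libraries (log2 change 3.42 in KO and 3.08 in WT, SE 0.15). Neither gene's 48 hr libraries overlapped its 0 hr libraries. Dnajb9, the BiP co-chaperone ERdj4, did not pass in either genotype (log2 change 0.30 in KO, edgeR adjusted p = 0.086, and 0.08 in WT, edgeR adjusted p = 0.62). The lectin chaperones Calr (calreticulin) and Canx (calnexin) rose by 2.22 and 2.66 on the log2 scale in KO and by 1.57 and 2.2 in WT.

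Of the 6 genes for disulfide formation, 5 rose and 1 fell in each genotype. Pdia6, a disulfide isomerase that also acts on the sensor IRE1, was at 1575, 1678 and 1598 CPM in KO 48 hr and 163, 187 and 207 CPM in KO 0 hr libraries. In WT it was at 1365, 1397 and 1311 CPM after 48 hr, with 220, 252 and 207 CPM at 0 hr. The log2 change was 3.12 in KO (SE 0.12, edgeR adjusted p = 9.8e-11) and 2.59 in WT (SE 0.12, edgeR adjusted p = 3.0e-10). The oxidases that re-oxidise these isomerases went opposite ways. Ero1l (ERO1-alpha) rose by 2.55 in KO and 2.41 in WT on the log2 scale. Ero1lb (ERO1-beta, chr13:12565874-12611396, plus strand) was at 154, 171 and 177 CPM in KO 48 hr libraries, against 207, 214 and 203 CPM in KO 0 hr libraries. In WT it was at 113, 113 and 125 CPM at 48 hr, against 223, 229 and 223 CPM at 0 hr. It fell by 0.31 in KO (SE 0.09, edgeR adjusted p = 0.0075) and by 0.95 in WT (SE 0.09, edgeR adjusted p = 5.5e-07). Without KO 48 hr replicate 10 the fall in KO no longer passed (edgeR adjusted p = 0.052).

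Translocation and early processing rose almost as a whole. All 8 genes of the Sec61, Sec62, Sec63 and TRAP complexes rose in KO and 7 of 8 in WT, where Sec62 did not pass. With upper-quartile scaling Sec62 was called lower in both genotypes and Sec63 in WT, and with no scaling factor both genes were called lower in both genotypes. All 3 signal peptidase genes (Spcs1, Spcs2, Spcs3) and all 3 oligosaccharyltransferase genes (Rpn1, Rpn2, Ddost) rose in both genotypes, by 1.51 to 2.2 in KO and by 1.57 to 2.01 in WT on the log2 scale. Sec61g, the gamma subunit of the channel, had the largest log2 change of the 47 in WT, 3.21 (SE 0.23, edgeR adjusted p = 2.6e-08), and one of 3.12 in KO (SE 0.23, edgeR adjusted p = 3.5e-08). Its libraries read 208, 220 and 232 CPM in KO 48 hr and 31.9, 17.9 and 26.3 CPM in KO 0 hr, and 234, 258 and 187 CPM in WT 48 hr and 27.7, 28.8 and 16.9 CPM in WT 0 hr. Ssr3, a subunit of the TRAP complex beside the channel, was at 495, 490 and 600.2 CPM in KO 48 hr and 62.1, 60.0 and 69.5 CPM in KO 0 hr libraries, and at 445, 474 and 475 CPM in WT 48 hr and 69.6, 76.2 and 63.0 CPM in WT 0 hr libraries (log2 change 3.05 in KO and 2.74 in WT, SE 0.12). All 48 hr libraries of these genes lay above all of their 0 hr libraries.

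ER-associated degradation moved less. Of 9 genes, 6 rose in KO (66.7%) and 4 in WT (44.4%), against 33.0% of all tested genes in each genotype. The median log2 changes were 0.70 in KO and 0.41 in WT. With upper-quartile scaling Edem2, Edem3 and Syvn1 were called lower in both genotypes and Sel1l in WT. Herpud1, a membrane protein that assembles the degradation complex, was at 259.6, 243.9 and 278.7 CPM in KO 48 hr and 136, 186 and 160 CPM in KO 0 hr libraries. In WT it was at 238, 237 and 217 CPM after 48 hr, with 147, 178 and 147 CPM at 0 hr. Its log2 change was 0.70 in KO (SE 0.13, edgeR adjusted p = 0.00022) and 0.55 in WT (SE 0.13, edgeR adjusted p = 0.0014). With no scaling factor it was -0.12 in KO and -0.34 in WT, and with upper-quartile scaling -0.12 in WT. Of these negative changes, only the -0.34 in WT was called lower. Syvn1 (the ubiquitin ligase HRD1) was not called in either genotype, with log2 changes of -0.14 in KO and -0.25 in WT.

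The sensors and the effector Ddit3 did not follow the chaperones: of 4 genes, 1 rose and 1 fell in KO, and 2 fell in WT. Of all tested genes, 33.0% rose and 37.7% fell in KO, and 33.0% rose and 40.9% fell in WT. Eif2ak3 (PERK) was at 33.2, 33.1 and 41.6 CPM in KO 48 hr and 46.7, 75.3 and 67.9 CPM in KO 0 hr libraries, and at 32.0, 31.0 and 35.3 CPM in WT 48 hr and 77.6, 83.2 and 82.7 CPM in WT 0 hr libraries. It fell by 0.82 in KO (SE 0.16, edgeR adjusted p = 0.00040) and by 1.31 in WT (SE 0.16, edgeR adjusted p = 5.6e-06). Ddit3 (CHOP), the transcription factor at the end of the PERK branch, was at 10.3, 9.87 and 13.3 CPM in KO 48 hr and 14.2, 9.67 and 12.0 CPM in KO 0 hr libraries, which overlapped (log2 change -0.10, SE 0.18, edgeR adjusted p = 0.64). In KO it was called lower with upper-quartile scaling and with no scaling factor, where the change was -0.91 (edgeR adjusted p = 0.00045). In WT it was at 10.5, 9.16 and 8.39 CPM after 48 hr, with 13.6, 13.9 and 14.4 CPM at 0 hr, a fall by 0.58 (SE 0.18, edgeR adjusted p = 0.011). Ern1 (IRE1-alpha) had few counts in every library, at 3.05, 3.27 and 3.06 CPM in KO 48 hr and 2.05, 4.47 and 3.07 CPM in KO 0 hr libraries, and at 2.39, 2.62 and 3.91 CPM in WT 48 hr and 1.98, 2.91 and 2.62 CPM in WT 0 hr libraries. Its log2 change was -0.03 in KO (edgeR adjusted p = 0.93) and 0.25 in WT (edgeR adjusted p = 0.46). Atf6 was at 104, 114 and 87.4 CPM in KO 48 hr and 48.5, 93.4 and 68.2 CPM in KO 0 hr libraries, and at 70.1, 72.4 and 87.0 CPM in WT 48 hr and 59.6, 72.1 and 62.8 CPM in WT 0 hr libraries. It passed in KO (log2 change 0.54, SE 0.19, edgeR adjusted p = 0.023) and not in WT (0.24, SE 0.19, edgeR adjusted p = 0.27). Its sign flipped with upper-quartile scaling (-0.09 in KO and -0.43 in WT) and with no scaling factor (-0.28 in KO and -0.64 in WT). In WT it was then called lower (edgeR adjusted p = 0.046 and 0.0076, in that order), and in KO it was not called. The call in KO was also lost without either of 2 KO 0 hr libraries (replicates 4 and 6) or without either of 2 KO 48 hr libraries (replicates 10 and 11).

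Mzb1, a chaperone of B cells and plasma cells that helps assemble immunoglobulin, was at 844, 907 and 871 CPM in KO 48 hr and 390, 278 and 259 CPM in KO 0 hr libraries. In WT it was at 798, 853 and 718 CPM after 48 hr, with 213, 227 and 184 CPM at 0 hr. It rose by 1.5 in KO and 1.92 in WT on the log2 scale (SE 0.15, edgeR adjusted p of 7.0e-07 in KO and 5.6e-08 in WT).

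**Figure D2:**
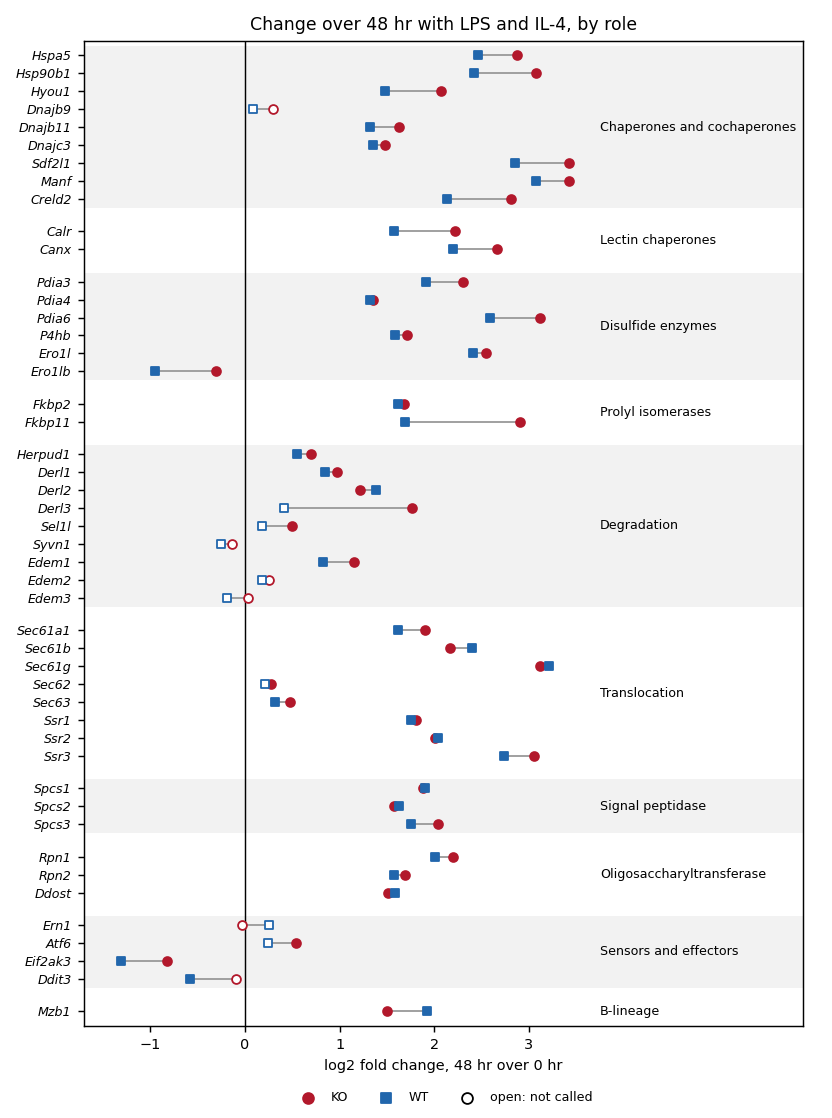
Log2 change at 48 hr against 0 hr for each of the 47 genes, grouped by role, with red circles for KO, blue squares for WT and open symbols for changes not past the edgeR threshold; in KO 39 genes rose and 2 fell, in WT 35 rose and 3 fell, and the KO symbol lies further to the right for 38 of 47 genes. With upper-quartile scaling 8 genes fell in KO and 11 in WT, Sec62 among them in both. With that scaling or no scaling factor Atf6 turns to a negative change in both genotypes and Herpud1 in WT, and with no scaling factor also Herpud1 in KO.

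At 48 hr, 4 of the 47 genes were higher in KO than in WT and none was called lower, which is 8.51% and 0.00%, against 1.47% and 0.544% of all tested genes. They were Hsp90b1, Ero1lb, Derl3 and Creld2, from 3 of the role groups. Unadjusted p-values under 0.05 were found for 15 members higher and 1 lower in KO, against 8.83% and 5.55% of all tested genes. DESeq2 called 5 members higher and 1 lower (Hyou1), against 3.16% and 2.52% of the genes it tested, and limma-voom 4 higher and none lower, against 0.575% and 0.434%. The sign was positive for 43 of 47 genes, with a median log2 difference of 0.22 beside 0.01 over all tested genes. For 26 genes (55.3%) every KO library lay above every WT library and for 1 gene (2.13%) below, against 10.7% and 9.53% of all tested genes. Leaving out 1 library at a time gave 0 to 5 members higher, none with WT replicate 7 dropped, 1 with WT replicate 8, WT replicate 9 or KO replicate 11 dropped, and 2 with KO replicate 10 dropped. In these 5 fits the share of all tested genes called higher was also lower, at 0.445% to 0.548%. Without replicates 12 and 6, the KO libraries nearest the WT libraries, all 4 stayed called.

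Hsp90b1 (chr10:86690209-86705509, minus strand) encodes GRP94, the Hsp90 chaperone of the ER, whose clients include Toll-like receptors and integrins. It was at 3608, 3888 and 3765 CPM in KO 48 hr libraries, against 2389, 2418 and 2514 CPM in WT 48 hr libraries. Every KO library was above every WT library, 1.54-fold on average (log2 difference 0.62, SE 0.09, edgeR adjusted p = 0.0040). Without WT 48 hr replicate 7 the adjusted p was 0.057, and without any other single library it passed. At 0 hr its KO libraries had 432, 439 and 456 CPM and its WT libraries 454, 491 and 428 CPM, which overlapped (log2 difference -0.05, edgeR adjusted p = 0.93). Other annotated transcripts overlap an exon of Hsp90b1, and their reads cannot be told apart where the counting assigned them to it.

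Derl3 (chr10:75893413-75895941, plus strand) encodes derlin-3, a membrane protein of the degradation pathway. It had 20.6, 24.6 and 23.3 CPM in KO 48 hr libraries, against 12.2, 11.6 and 10.6 CPM in WT 48 hr libraries. The groups did not overlap, and the 1.99-fold difference was the largest of the 47 on the log2 scale (1.00, SE 0.20, edgeR adjusted p = 0.023). Its 0 hr libraries read 7.29, 8.01 and 4.84 CPM in KO and 8.27, 10.5 and 7.17 CPM in WT and overlapped. With activation it rose in KO by 1.77 (SE 0.20, edgeR adjusted p = 3.6e-06), whereas the change in WT was 0.41 (SE 0.20, edgeR adjusted p = 0.080). The 48 hr call was lost without any one of WT 48 hr replicates 7, 8 and 9 or KO 48 hr replicates 10 and 11, with adjusted p between 0.058 and 0.14.

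Creld2 (chr15:88819646-88826683, plus strand) encodes an ER protein with disulfide isomerase activity that is induced by ER stress. Its level was 211, 221 and 239.9 CPM in KO 48 hr libraries and 162, 169.7 and 158 CPM in WT 48 hr libraries, without overlap (log2 difference 0.46, SE 0.10, edgeR adjusted p = 0.029). It did not pass with DESeq2-type size factors (edgeR adjusted p = 0.061), nor without any one of WT 48 hr replicates 7, 8 and 9 or KO 48 hr replicates 10 and 11 (0.072 to 0.17). Ero1lb, whose levels are given above, was 1.43-fold higher in KO 48 hr than in WT 48 hr libraries, again without overlap (log2 difference 0.52, SE 0.09, edgeR adjusted p = 0.0099). It no longer passed when any WT 48 hr library, or KO replicate 11, was left out (0.050 to 0.11).

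**Figure D3:**
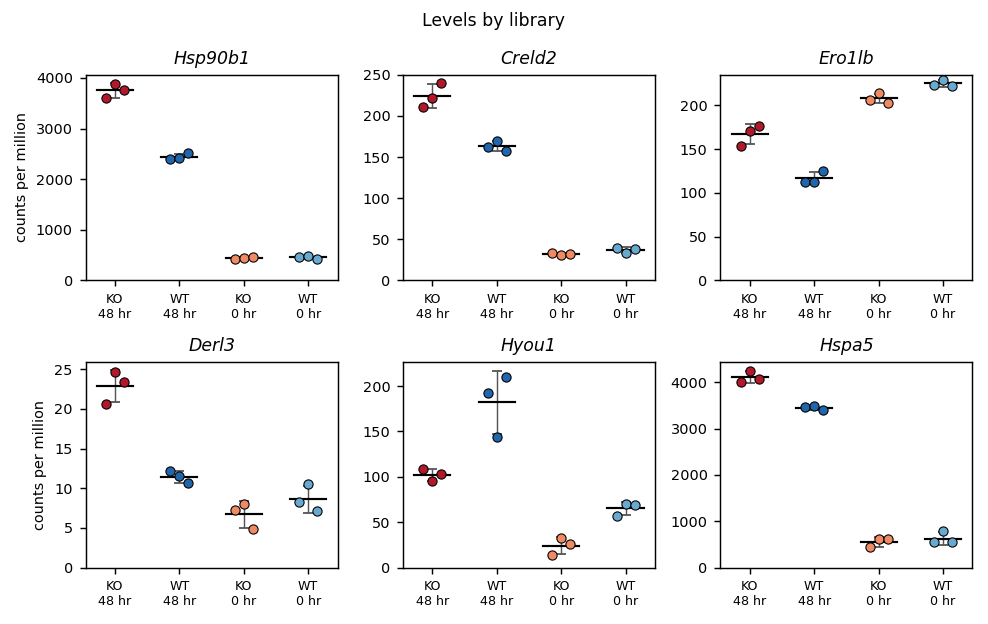
CPM of 6 genes in every library by group, with the mean and SD of 3 libraries; for Hsp90b1, Creld2, Ero1lb and Derl3 the KO 48 hr points all lie above the WT 48 hr points, for Hyou1 the KO points lie below the WT points at both times, and for Hspa5 the 48 hr points are separate without passing the test.

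Most members that missed the threshold had a difference of the same sign, with smaller or more variable differences. Hspa5 was higher in every KO 48 hr library than in any WT 48 hr library, but its log2 difference of 0.25 (95% interval -0.08 to 0.59) did not pass (edgeR adjusted p = 0.51). Edem1, a lectin that directs misfolded glycoproteins to degradation, was at 245, 259.8 and 334 CPM in KO 48 hr and 180, 150 and 188 CPM in WT 48 hr libraries (log2 difference 0.69, 95% interval 0.30 to 1.09, edgeR adjusted p = 0.078). Calr had a log2 difference of 0.41 (edgeR adjusted p = 0.20), the signal peptidase subunit Spcs3 of 0.42 (0.16), Edem3 of 0.46 (0.14) and the derlin Derl1 of 0.32 (0.16). The 48 hr libraries fitted alone called 8 members higher, adding Calr, Derl1, Edem1 and Spcs3, against 1.85% of the genes tested in that fit. None of the 8 translocation genes, 3 signal peptidase genes, 3 oligosaccharyltransferase genes and 4 genes for sensors and effectors passed edgeR, DESeq2 or limma-voom at 48 hr, with unadjusted p-values under 0.05 for 2 translocation genes and 1 signal peptidase gene. All 3 oligosaccharyltransferase genes nevertheless had every KO library above every WT library.

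Hyou1 (chr9:44379490-44392369, plus strand), which encodes GRP170, the nucleotide exchange factor of BiP, went the other way. At 48 hr it was at 108, 94.97 and 103 CPM in KO and 192, 144 and 210 CPM in WT libraries, without overlap, but the log2 difference of -0.83 (SE 0.24, 95% interval -1.34 to -0.33) missed the threshold (edgeR adjusted p = 0.097). At 0 hr it was at 13.7, 32.7 and 26.4 CPM in libraries labelled KO and 57.4, 70.1 and 68.6 CPM in those labelled WT. It was lower in all 3 KO libraries at 0 hr, with a log2 difference of -1.43 (SE 0.24, edgeR adjusted p = 0.010). The call was lost without WT 0 hr replicate 3 (edgeR adjusted p = 0.051) and when the 0 hr libraries were fitted alone (0.10). With activation it rose in both genotypes, by 2.07 in KO and 1.48 in WT on the log2 scale. Of its 3 transcripts, the main one held 94.9% of its counts in KO 48 hr, 94.1% in WT 48 hr, 74.7% in KO 0 hr and 89.2% in WT 0 hr libraries.

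Before stimulation few members differed. Hyou1 was the 1 gene called lower, and none was called higher, in KO 0 hr against WT 0 hr libraries. These are 2.13% and 0.00% of the members, against 0.429% and 0.680% of all tested genes. With unadjusted p-values under 0.05 there were 7 lower and 2 higher, against 4.17% and 6.50% of all tested genes. DESeq2 called 2 lower and 1 higher, against 1.43% and 2.29% of the genes it tested, and limma-voom 2 lower and none higher, against 0.570% and 0.664%. The second gene that both tools called lower was Fkbp11, a prolyl isomerase of secretory tissues, at 1.61, 1.36 and 2.68 CPM in KO 0 hr and 3.84, 3.83 and 3.78 CPM in WT 0 hr libraries. Its groups did not overlap (log2 difference -1.02, SE 0.23, edgeR adjusted p = 0.052), and it passed without KO 0 hr replicate 6 (0.0028). Mzb1, the gene that DESeq2 called higher, had a log2 difference of 0.57 (SE 0.15, edgeR adjusted p = 0.091). Libraries of the genotypes overlapped for 39 of the 47 genes, while 2 were higher (4.26%) and 6 lower (12.8%) in every KO library, against 7.02% and 7.92% of all tested genes. The median log2 difference was 0.02, beside 0.00 over all tested genes.

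**Figure D4:**
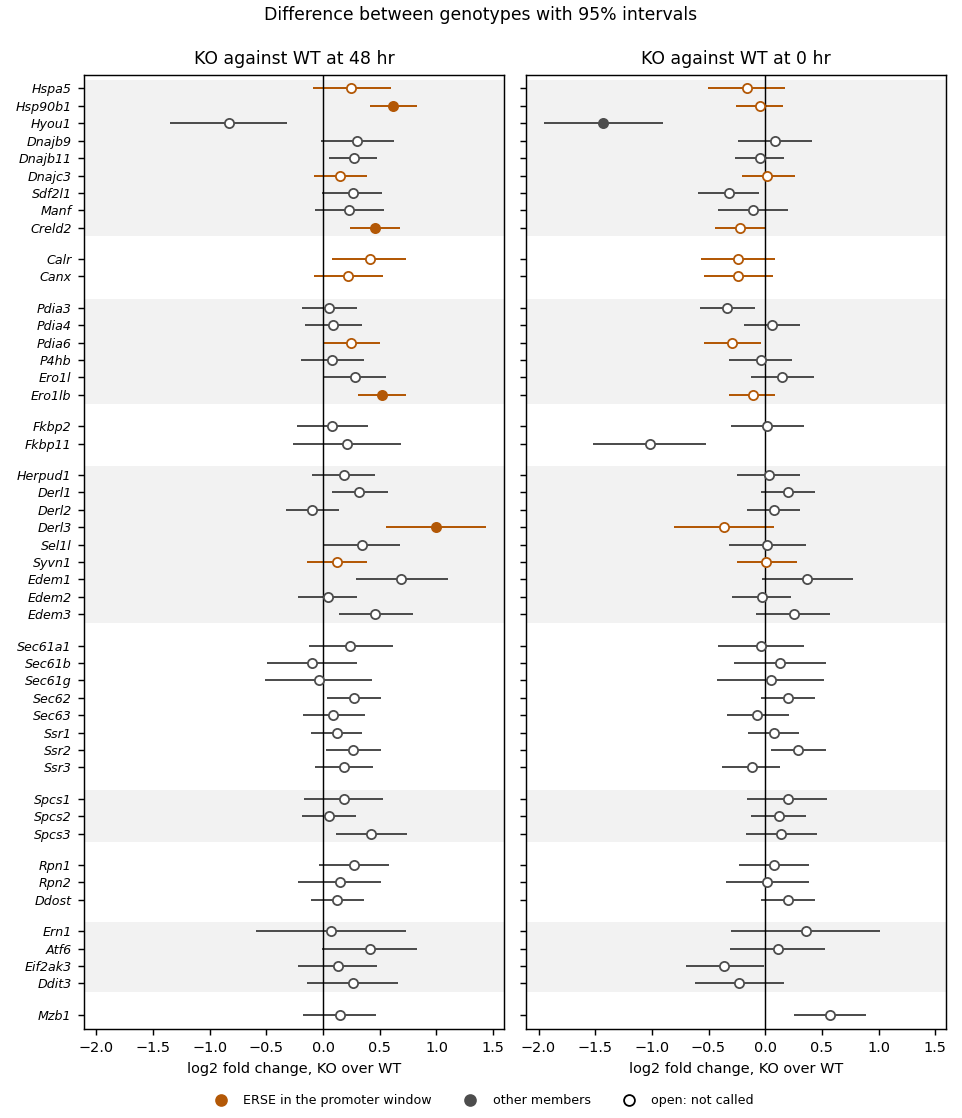
Log2 difference of KO against WT for each of the 47 genes at 48 hr (left) and 0 hr (right), with open symbols for differences not past the edgeR threshold and orange symbols for genes with an ERSE in the promoter window; at 48 hr 43 of 47 genes lie right of 0 and the 4 filled symbols are all orange, and at 0 hr the single filled symbol is Hyou1. The grey symbols include 8 members with no window to search, Hyou1 among them.

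Whether the response to activation itself differed between genotypes was tested with the interaction term. No member passed edgeR's test in either direction (0.00%, against 0.0680% of all tested genes positive and 0.0471% negative). Unadjusted p-values under 0.05 were found for 12 genes with a positive term (a log2 change that was higher in KO, or, for Ero1lb and Eif2ak3, less negative) and for none with a negative term, against 4.88% and 3.73% of all tested genes. DESeq2 called 5 positive (Creld2, Derl3, Ero1lb, Fkbp11 and Hsp90b1) and none negative, against 0.669% and 0.589%, and limma-voom 1 positive (Hsp90b1) and none negative, against 0.0523% and 0.0366%. The estimates were 1.36 for Derl3 (95% interval 0.75 to 1.97), 1.22 for Fkbp11 (0.54 to 1.90), 0.68 for Creld2 (0.38 to 0.97), 0.67 for Hsp90b1 (0.38 to 0.96) and 0.63 for Ero1lb (0.36 to 0.91). Their edgeR adjusted p-values lay between 0.098 and 0.24. The median over the 47 genes was 0.21, beside 0.01 over all tested genes.

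The genes with an ERSE, printed above, were compared with those without one as a description. At 48 hr the 10 genes had a median log2 difference of KO against WT of 0.33, positive in 10 of 10, and held all 4 called genes. The 29 members with a window and no ERSE had a median of 0.15, positive in 26 of 29, with none called. The median change with activation was 2.44 in KO and 1.85 in WT for the genes with an ERSE, and 1.57 in both KO and WT for the 29 without. With ERSE-II counted as well, the order in WT was reversed. The 12 genes with either element had medians of 1.99 in KO and 1.46 in WT. The 27 with neither had 1.57 in KO and 1.59 in WT. At 0 hr the medians were -0.19 with an ERSE and 0.05 without. The 12 other tested genes of the genome with an ERSE had a median of 0.07 at 48 hr (range -0.2 to 5.49), positive in 6 of 12. Unlike the members, these 12 genes had median changes with activation of 0.13 in KO and -1.28 in WT. Of them, 3 were called higher and 5 lower in KO, and 2 higher and 6 lower in WT. No window was available for 8 members (Hyou1, Manf, Derl1, Sec61a1, Ssr2, Spcs3, Atf6 and Mzb1), so they were not searched. Their median at 48 hr was 0.25, positive in 7 of 8, with none called.

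Some markers of antibody-secreting cells were higher in KO 48 hr libraries, as were the summed markers of T cells and of NK cells. The 10 plasma-cell markers summed to 1003 to 1248 CPM in KO 48 hr and 841 to 862 CPM in WT 48 hr libraries, and to 687 to 1039 CPM in KO 0 hr and 504 to 662 CPM in WT 0 hr libraries. The list includes Xbp1. None of its markers was at 0 in a group, and 3 of 10 were called higher in KO at 48 hr: Prdm1 (Blimp-1) by 1.74, Sdc1 (CD138) by 1.09 and the elongation factor Ell2 by 0.51 on the log2 scale (edgeR adjusted p = 0.0048, 0.029 and 0.048), against 1.47% of all tested genes. DESeq2 called 4 of the 10 higher at 48 hr, against 3.16% of the genes it tested, and limma-voom 1, against 0.575%. At 0 hr Sdc1 was already called higher in KO (log2 difference 1.02, edgeR adjusted p = 0.048), 1 of the 10, against 0.680% of all tested genes. With activation 6 of the 10 rose and 3 fell (Cd28, Jchain and Sdc1) in each genotype. Of all tested genes, 33.0% rose and 37.7% fell in KO, and 33.0% rose and 40.9% fell in WT. Markers of T cells summed to 44.5 to 113 CPM in KO 48 hr and 38.6 to 43.0 CPM in WT 48 hr libraries, those of NK cells to 6.09 to 18.0 and 4.71 to 6.02 CPM, and those of myeloid cells to 15.6 to 33.1 and 17.0 to 18.4 CPM. Of the 6 NK-cell markers, edgeR called Prf1 higher in KO at 48 hr (16.7%, against 1.47% of all tested genes). It called no T-cell or myeloid marker between genotypes at 48 hr. Erythroid markers reached 278 to 3366 CPM in KO 0 hr and 596 to 880 CPM in WT 0 hr libraries, against 4.797 to 13.3 CPM in KO 48 hr and 10.6 to 13.4 CPM in WT 48 hr libraries. Their part in the differences above was not tested.

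Genes of the same pathway outside the 47 were counted in 6 further lists. Over time, 33.0% of all tested genes rose and 37.7% fell in KO, and 33.0% rose and 40.9% fell in WT. Of 8 other regulators of the unfolded-protein response, 3 rose in KO, and 3 rose and 1 fell in WT, and none was called between genotypes at 48 hr by edgeR, DESeq2 or limma-voom (1 at an unadjusted p under 0.05). Among them, Xbp1 was at 583, 623 and 725 CPM in KO 48 hr and 115, 141 and 143 CPM in KO 0 hr libraries, and at 545, 539.8 and 538 CPM in WT 48 hr and 137, 162 and 135 CPM in WT 0 hr libraries. It rose by 2.28 in KO and 1.90 in WT on the log2 scale, and its log2 difference at 48 hr was 0.25 (edgeR adjusted p = 0.36). Its splicing cannot be read from these gene totals. Atf4 rose by 1.09 in KO and 1.24 in WT, with a log2 difference at 48 hr of -0.13 (edgeR adjusted p = 0.76). Of 20 other translocation, signal peptidase and oligosaccharyltransferase genes, 20 rose in KO and 20 in WT, with medians of 1.41 in KO and 1.42 in WT. Of 16 other degradation genes, 11 rose and 1 fell in KO, and 12 rose and 1 fell in WT. Of 20 other folding genes, 15 rose and 2 fell in KO, and 14 rose and 2 fell in WT. None of these 3 lists (20, 16 and 20 genes) had a gene called at 48 hr between genotypes by edgeR, DESeq2 or limma-voom. At an unadjusted p under 0.05, 6 of their genes were higher and 1 lower, against 8.83% and 5.55% of all tested genes.

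At 48 hr edgeR called 2 of 28 genes of vesicle traffic between ER and Golgi higher in KO, and 1 of 14 genes of the PERK and ATF4 branch. That is 7.14% of each list, against 1.47% of all tested genes, and limma-voom called 1 gene in each. The median log2 difference was 0.11 for traffic, positive in 21 of 28, and 0.00 for the branch, positive in 7 of 14. Of 28 traffic genes, 25 rose and 2 fell with activation in KO, and 23 rose and 2 fell in WT. Sec24d, a cargo adaptor of COPII vesicles, was at 38.2, 24.1 and 46.8 CPM in KO 48 hr and 16.1, 15.2 and 17.7 CPM in WT 48 hr libraries (log2 difference 1.16, edgeR adjusted p = 0.032). Kdelr3, a receptor that returns chaperones to the ER, was at 2.09, 1.40 and 1.504 CPM in KO 48 hr and 0.386, 0.243 and 0.0512 CPM in WT 48 hr libraries (log2 difference 2.86, edgeR adjusted p = 0.044). Neither gene's genotypes overlapped, and the fold of Kdelr3 rests on few counts in WT. Of the 14 genes of the PERK and ATF4 branch, which include Atf4 itself and Eif2s1, 9 rose and 2 fell in each genotype. The largest rises in WT were those of Asns (log2 change 6.31), Chac1 (5.57), Atf3 (5.42) and Trib3 (4.11). Slc7a11, the cystine transporter, was at 5.74, 7.18 and 7.93 CPM in KO 48 hr and 3.22, 2.78 and 3.53 CPM in WT 48 hr libraries, without overlap (log2 difference 1.13, SE 0.19, edgeR adjusted p = 0.0066). With activation it fell by 0.69 in KO and by 1.84 in WT.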

How the data were processed

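RNA-seq was measured in 12 libraries of mouse splenic B cells. Per the labels, 2 ng of total RNA was amplified with the SMART-Seq v4 kit, which does not mark strand, and sequenced in pairs. Per the submitters' processing notes, bcl2fastq 2.20.0.422, Trimmomatic 0.36, Salmon 0.8.2, DESeq2 1.14.1 and the mm10 build were used. The authors deposited estimated counts per transcript, not normalized.

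The 63759 transcripts were summed to 32699 gene symbols. All 12 libraries were fitted in 1 model of 4 groups with edgeR 4.0.16 in R 4.3.3 (filterByExpr, TMM, quasi-likelihood test, Benjamini-Hochberg adjustment over 19125 genes, threshold 0.05). The fit was run on simulated counts with the same spread in all groups. That simulation did not cover the larger spread of the KO libraries. DESeq2 1.42.0 and limma 3.58.1 (voom) were alternatives, with other scalings, filters and left-out libraries. Levels are CPM. Called members, the 6 largest changes with time in WT per direction, the sensors, Ddit3, Hspa5, Hsp90b1, Herpud1 and Mzb1 are given in every library; members shown as near the threshold (Edem1) were picked after their values were seen. The members and gene lists were chosen with earlier results of these data known. Transcript lengths were not used, so levels are not compared between genes.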

Additional observations from a re-analysis of the deposited data

Results flagged for a closer look

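Creld2 and Ero1lb lay lower in every library labelled KO than in every WT library at 0 hr and higher in every KO library at 48 hr, with log2 differences at 48 hr of 0.46 for Creld2 and 0.52 for Ero1lb. At 0 hr Creld2 was at 30.3 to 32.7 CPM in KO and 33.3 to 39.2 CPM in WT libraries, and Ero1lb at 203 to 214 CPM in KO and 223 to 229 CPM in WT libraries. The opposite order of the libraries was not tested as such. The interaction term was 0.68 for Creld2 and 0.63 for Ero1lb, with an edgeR adjusted p of 0.10 each, and the 0 hr differences alone did not pass (-0.22 for Creld2, edgeR adjusted p = 0.44, and -0.11 for Ero1lb, edgeR adjusted p = 0.78).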

How the results depend on the processing

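Over 122 gene and contrast pairs (all members between genotypes and the genes given in every library over time), 2866 of 2928 values stayed on their side of the threshold under the alternatives, 73 of them with the other sign and called under neither setting. Another 24 passed newly, 31 no longer passed and 7 changed sign with a call in at least 1 setting. The cause of each change was not tested. These 7 were Atf6 with upper-quartile scaling (-0.09 in KO and -0.43 in WT) and with no scaling factor (-0.28 in KO and -0.64 in WT), and Herpud1 with upper-quartile scaling in WT (-0.12) and with no scaling factor (-0.12 in KO and -0.34 in WT). Outside these pairs, members whose call over time turned lower under other scalings are named in the report or counted here. Members called higher in KO at 48 hr, 4 in the report, numbered 2 at an adjusted p under 0.01, 8 when the 48 hr libraries were fitted alone, and 0 to 5 without 1 library. Members called lower at 48 hr, 0 in the report, numbered 1 with DESeq2 or the 48 hr libraries alone, and 0 to 1 without 1 library. At 0 hr the members called higher, 0 in the report, numbered 1 with DESeq2 and without both KO libraries nearest WT, and 0 to 1 without 1 library. Those called lower at 0 hr, 1 in the report, numbered 2 with DESeq2, limma-voom, upper-quartile scaling, no scaling factor, no filter on low counts, a filter at 1 CPM in 3 libraries, and without both KO libraries nearest WT, 0 at an adjusted p under 0.01 or with the 0 hr libraries alone, and 0 to 2 without 1 library. Members that fell with time in KO, 2 in the report, numbered 8 with upper-quartile scaling, 10 with no scaling factor, and 1 to 2 without 1 library. In WT, 3 in the report, they numbered 11 with upper-quartile scaling, 13 with no scaling factor, 5 with the filter at 1 CPM, and 3 to 4 without 1 library. Members with a called positive interaction, 0 in the report, numbered 5 with DESeq2, 1 with limma-voom, upper-quartile scaling or no scaling factor (Hsp90b1), 1 without both KO libraries nearest WT (Fkbp11), and 0 to 1 without 1 library. The fits with no scaling factor and without both KO libraries nearest WT were chosen after seeing the data. No paired analysis was possible because the labels number the libraries 1 to 12 and no number recurs between groups.

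Genotype and sex composition, 3 libraries a group of unstated origin, a KO group more variable than WT and an unchanged Chd4 level at 0 hr limit every comparison of KO with WT. The amplified libraries carry no molecular identifiers. Reads from overlapping genes cannot be separated by strand.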

Other observations

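Among the plasma-cell markers, Prdm1, which encodes Blimp-1, was at 33.5, 31.0 and 59.5 CPM in KO 48 hr libraries, against 11.0, 11.0 and 14.9 CPM in WT 48 hr libraries, without overlap (log2 difference 1.74, edgeR adjusted p = 0.0048). At 0 hr it was at 4.54, 7.15 and 3.69 CPM in KO and 5.53, 5.30 and 6.31 CPM in WT libraries, which overlapped. Irf4, which acts with Blimp-1 in plasma-cell differentiation, had a log2 difference at 48 hr of 0.76 (edgeR adjusted p = 0.094), and Bhlha15 (MIST1), a regulator of secretory cells, of 1.06 (edgeR adjusted p = 0.19). Jchain, which encodes the joining chain of polymeric antibodies, was at 15.4, 36.8 and 27.3 CPM in KO 48 hr libraries, against 380, 645 and 369 CPM in KO 0 hr libraries. In WT it was at 16.1, 19.6 and 15.4 CPM at 48 hr, against 234, 314 and 211 CPM at 0 hr. It fell by 4.13 in KO and 3.89 in WT on the log2 scale.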
